A study of Rattus norvegicus with 6 samples.

Results

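The thyroid hormone response genes examined here were 9 genes named by symbol: the deiodinase Dio1, the receptors Thra and Thrb, the hormone-responsive genes Thrsp, Klf9 and Gpd2, the plasma carrier Serpina7, and the receptor cofactors Ncor1 and Med1. They were taken up because compounds that induce cytochrome P450 and Ugt enzymes can lower circulating thyroid hormone in rats. Every non-control probe whose RefSeq transcript maps to one of these symbols was used. That gave 11 probes of 6 genes, out of 61657 non-control probes on the array, and 10 of the 11 probes, from 5 genes, were bright enough to be tested. Serpina7, Ncor1 and Med1 had no matched probe and were not analysed here.

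The samples were livers of 6 male Sprague-Dawley rats of the Crl:CD(SD) stock, bought at 5 weeks of age and kept on a basal diet. The TCEP group was 3 animals given tris(2-chloroethyl) phosphate, a chlorinated organophosphate used as a flame retardant, at 400 mg/kg/day, and the corn oil group was 3 animals given corn oil, taken here as the vehicle. The treatment protocol gives 9 weeks of dosing, whereas the design text gives 28 days, so the length of exposure is uncertain. Each animal gave 1 Agilent 1-colour array of 62976 spots. Values below are log2 of the array's processed signal minus that array's 75th percentile, so that 0 is the signal of a probe at the 75th percentile of its array.

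Thyroxine from the thyroid is converted in liver to the more active triiodothyronine by removal of an outer-ring iodine, the reaction that Dio1 catalyses. Triiodothyronine binds the nuclear receptors encoded by Thra and Thrb, of which Thrb is the main form in liver. These sit on target genes with a retinoid X receptor partner, recruit corepressors such as Ncor1 without hormone and the Mediator through Med1 with it. Dio1, Thrsp and Gpd2 are long-known hormone-induced transcripts of rat liver, and their levels fall in hypothyroid animals. Rat liver also clears thyroxine by glucuronidation, a step that enzyme-inducing compounds can speed up.

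The promoter windows of Dio1, Thrsp and Klf9 are shown because these 3 had the largest differences in level among the members tested. Each runs from 250 bases before to 50 bases after a gene start in RefSeq, build GRCr8, and is written on the strand of the gene: Dio1 at chr5:127319735-127320034, minus strand, Thrsp at chr1:161138915-161139214, minus strand, and Klf9 at chr1:230126396-230126695, plus strand. Capitals mark CACCC, or CCGCCC, which is GGGCGG read on the other strand. Both are letters of the GC-rich boxes that the Klf9 protein is known to bind.
Dio1: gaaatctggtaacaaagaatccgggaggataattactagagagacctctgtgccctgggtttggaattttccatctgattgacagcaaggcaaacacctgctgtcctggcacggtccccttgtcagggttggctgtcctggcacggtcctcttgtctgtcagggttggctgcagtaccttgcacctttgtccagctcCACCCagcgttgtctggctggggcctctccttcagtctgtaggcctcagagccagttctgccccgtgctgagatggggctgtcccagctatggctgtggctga
Thrsp: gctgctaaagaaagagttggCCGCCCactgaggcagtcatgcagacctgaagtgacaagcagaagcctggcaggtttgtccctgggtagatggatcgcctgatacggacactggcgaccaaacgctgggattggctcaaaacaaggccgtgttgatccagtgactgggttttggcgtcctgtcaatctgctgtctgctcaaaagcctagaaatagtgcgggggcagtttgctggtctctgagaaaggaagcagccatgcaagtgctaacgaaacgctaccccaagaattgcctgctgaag
Klf9: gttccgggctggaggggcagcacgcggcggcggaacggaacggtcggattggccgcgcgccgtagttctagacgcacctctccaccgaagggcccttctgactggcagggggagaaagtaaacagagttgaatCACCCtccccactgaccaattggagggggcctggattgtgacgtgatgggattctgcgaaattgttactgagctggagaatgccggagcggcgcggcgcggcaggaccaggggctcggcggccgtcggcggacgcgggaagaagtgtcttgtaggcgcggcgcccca
The receptor half-site AGGTCA was searched on both strands, along with the direct repeat of it spaced by 4 bases, which contains it. Neither was present in any of the 9 windows held for 8 of the members (Med1 was not among them). AGGTCA was present in 16.2% of all 33469 rat promoter windows of this length, and the repeat in 0.00598%. GGGCGG was present in 33.1% of these windows and CACCC in 54.9%. A lack of these letters says nothing of sites outside the windows.

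Apart from corn oil replicate 2, the arrays were alike in depth. Between 61.6% and 64.4% of probes were well above background on the TCEP arrays, against 57.2% to 63.7% on the corn oil arrays. Corn oil replicate 2 was the lowest, carried 40 of the 64 outlier-flagged spots, and was alone on its slide and scanned on a later day. Its lowest signal well above background was -4.38 on the log2 scale, against -5.45 to -5.08 on the other arrays. Pairs of TCEP arrays correlated at 0.9915 to 0.9928 across genes and pairs of corn oil arrays at 0.9857 to 0.9884. All TCEP arrays were on a slide of their own, so that slide and treatment cannot be told apart. Hepatocyte markers were measured for all 8 genes listed, with the summed linear signal between 4611 and 5239 in TCEP livers and between 5125 and 5286 in corn oil livers, in units of the 75th percentile. No gene of the 27642 tested passed an adjusted p of 0.05 (limma, Benjamini-Hochberg over all genes), and the smallest adjusted p was 0.291.

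None of the 5 measured thyroid hormone response genes passed the test. The share of all genes passing was 0%, and at an unadjusted p under 0.05 it was 9.2%, where again 0 of the 5 members were found. In none of the 5 did the TCEP and corn oil animals separate without overlap, against 17.4% of all genes (10.3% higher and 7.06% lower in TCEP livers). Dio1, Thrsp and Klf9 had lower means in TCEP livers and Gpd2 and Thra had higher means, against 49.1% lower and 50.9% higher over all genes. The median log2 difference of the 5 members was -0.30, against 0.005 for all genes. Because these are whole-liver samples, fewer cells of a type and less RNA per cell cannot be told apart.

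**Figure D1:**
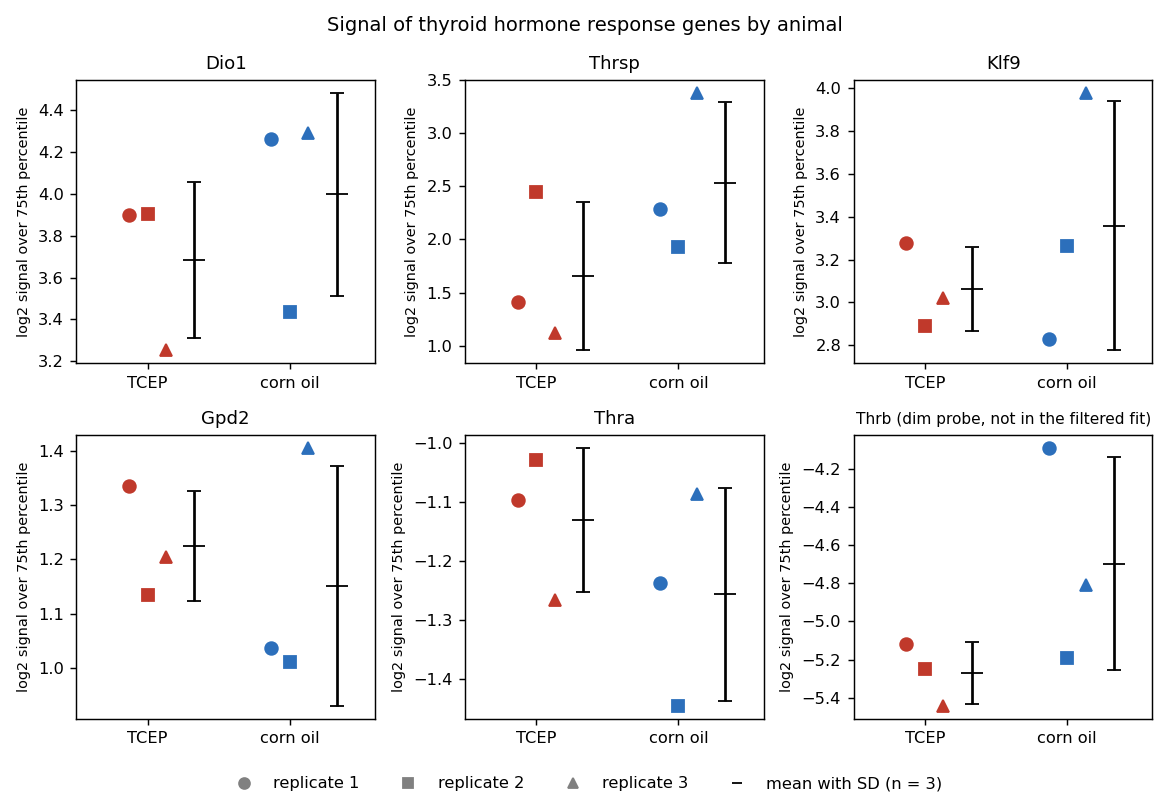
Each panel plots 1 gene as log2 signal over the array's 75th percentile (vertical axes differ and do not start at 0) for the TCEP animals and the corn oil animals. Symbols give the replicate number and bars the mean with SD of 3 animals. The ranges of the groups overlap in every panel, for Thrb, a dim probe outside the filtered fit, only between TCEP replicate 1 at -5.12 and corn oil replicate 2 at -5.19.

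Dio1, the deiodinase, had values of 3.90, 3.90 and 3.25 in TCEP livers, against 4.26, 3.44 and 4.29 in corn oil livers. The lowest animal of each group stood well below its group mates, TCEP replicate 3 and corn oil replicate 2, and the groups overlapped. The means were 3.68 ± 0.37 with TCEP and 4.0 ± 0.48 with corn oil (SD, n = 3 each), a log2 difference of -0.31 ± 0.29 (SE; adjusted p = 0.761, limma). The ratio of levels was 0.805, with a 95% interval from 0.491 to 1.32. The other probes of Dio1 gave -0.29 ± 0.30 and -0.42 ± 0.30 (SE), and the values of the 3 probes correlated at 0.972 to 0.988 over the 6 arrays, which they share. Neither a reduction to about the lower end of that interval nor a rise to its upper end can be told from no change with 3 animals a group.

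Thra, the receptor that is not the main form in liver, was measured by 1 probe. It had values of -1.10, -1.03 and -1.27 in TCEP livers, against -1.24, -1.45 and -1.09 in corn oil livers. The groups overlapped, and corn oil replicate 2 was the lowest. The log2 difference was 0.13 ± 0.13 (SE, n = 3 each; adjusted p = 0.783, limma), a ratio of 1.09 with a 95% interval from 0.878 to 1.35.

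Thrb, the main receptor form of liver, was also represented by 1 probe, which was well above background on 1 of 3 TCEP arrays and 2 of 3 corn oil arrays and so did not enter the filtered fit. Its processed signals were 16.1, 12.8 and 12.1 in TCEP livers, against 27.6, 12.7 and 19.0 in corn oil livers. On the log2 scale these were -5.12, -5.25 and -5.44 with TCEP and -4.09, -5.19 and -4.81 with corn oil, with the groups just overlapping. In the fit with no filter on dim probes, the log2 difference was -0.57 ± 0.30 (SE, n = 3 each; adjusted p = 0.804, limma). The overlap rests on corn oil replicate 2, where the value lay below the lowest signal well above background on that array, -4.38. The dim signal limits what this probe can show.

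Thrsp encodes a nuclear protein that promotes fatty acid synthesis and is induced by thyroid hormone and by carbohydrate feeding. Its 1 probe had values of 1.41, 2.44 and 1.12 in TCEP livers, against 2.29, 1.93 and 3.38 in corn oil livers. TCEP replicate 2 lay among the corn oil animals, and corn oil replicate 3 was the highest of all. The means were 1.66 ± 0.70 with TCEP and 2.53 ± 0.76 with corn oil (SD, n = 3 each). The log2 difference, -0.88 ± 0.48 (SE; adjusted p = 0.613, limma), was the largest in size among the measured members, and its ratio of 0.544 had a 95% interval from 0.242 to 1.23.

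Klf9 encodes a zinc-finger transcription factor that is induced both by thyroid hormone and by glucocorticoids. Its brighter probe had values of 3.28, 2.89 and 3.02 in TCEP livers, against 2.83, 3.26 and 3.98 in corn oil livers. The TCEP animals were close together and lay within the range of the corn oil animals, of which replicate 1 was the lowest and replicate 3 the highest of all 6. The log2 difference was -0.30 ± 0.29 (SE, n = 3 each; adjusted p = 0.776, limma), and the other probe gave -0.30 ± 0.34 with a correlation of 0.990 to the first over the same 6 arrays.

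Gpd2 encodes the mitochondrial glycerol-3-phosphate dehydrogenase, which passes cytosolic reducing power to the respiratory chain and is a classical hormone-induced enzyme of rat liver. Its brightest probe had values of 1.34, 1.13 and 1.21 in TCEP livers, against 1.04, 1.01 and 1.40 in corn oil livers. Corn oil replicate 3 was again the highest of the 6, and the other corn oil animals lay below all 3 TCEP animals. The log2 difference was 0.07 ± 0.14 (SE, n = 3 each; adjusted p = 0.893, limma), with a ratio interval from 0.835 to 1.33. The other probes both gave 0.14 ± 0.17 (SE).

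**Figure D2:**
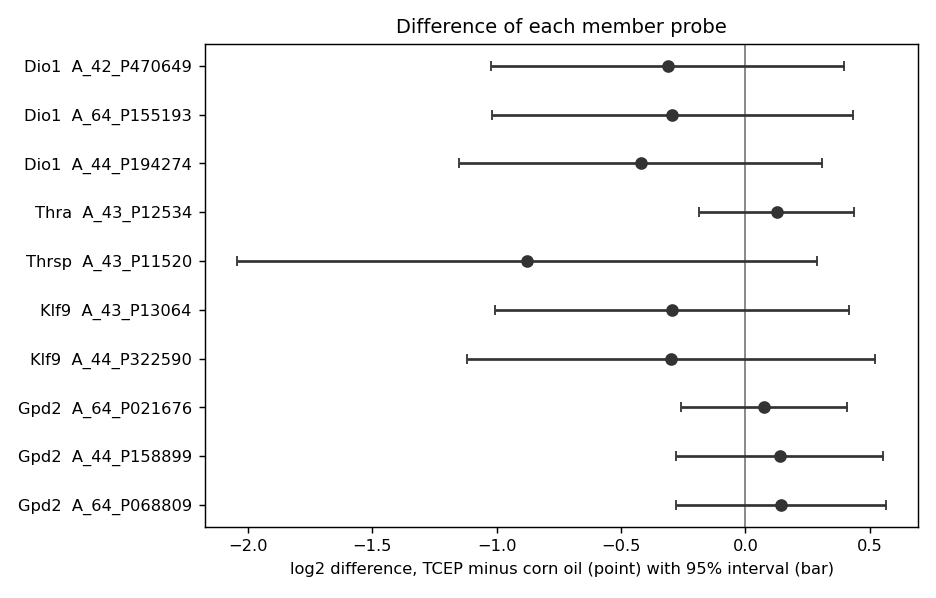
Points are the log2 differences, TCEP minus corn oil, of the 10 member probes bright enough to test, and bars are 95% intervals from limma (n = 3 each). Every interval includes 0, from Thrsp at -0.88 to the probes of Gpd2 at 0.07 to 0.14, and probes of the same gene lie on the same side.

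The members differed in how much animals of the same group varied. The SD between animals, pooled over both groups, was 0.728 log2 units for Thrsp, larger than that of 96.8% of genes. It was 0.432 for Dio1 and 0.434 for Klf9, larger than that of 87.9% and 88% of genes, against a median over all genes of 0.184. Gpd2 at 0.171 and Thra at 0.154 were below that median. Among genes above the 75th percentile of signal, however, 64.4% had a smaller SD than Gpd2, which is one of them. The shares were 93.1% for Dio1 and Klf9 and 98% for Thrsp. The share for Thra was 58.3%, but Thra itself lies below the 75th percentile and is there set against brighter genes. A log2 difference near the -0.30 of Klf9 and Dio1 is thus smaller than the spread of those genes between animals of the same treatment.

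**Figure D3:**
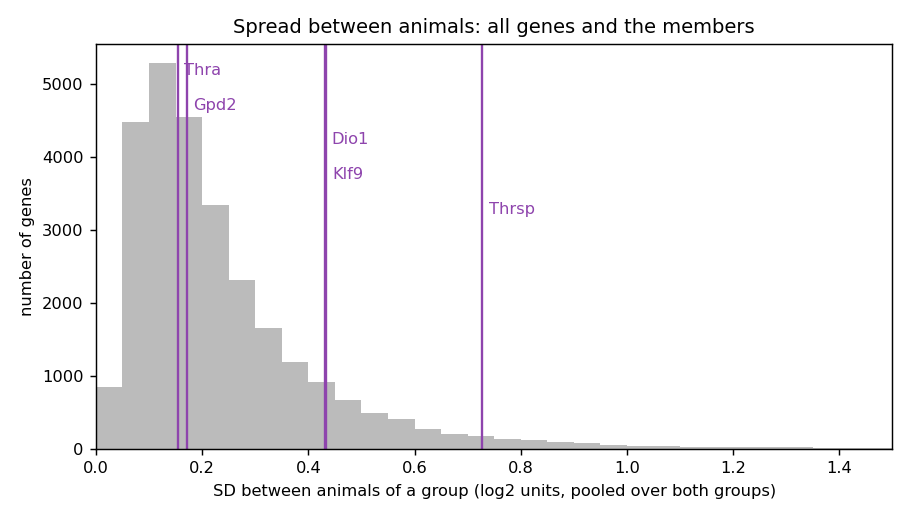
Grey bars count genes by the SD between animals of a group, in log2 units pooled over both groups, and purple lines mark the 5 measured members. Thra and Gpd2 lie near the peak, Dio1 and Klf9 at 0.43 in the right tail and Thrsp at 0.728 further out, and genes beyond the right edge are not drawn.

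Several of these values rested on 1 animal. Without corn oil replicate 2, the array scanned on a later day, Dio1 was lower in TCEP livers with no overlap, by a log2 difference of -0.59 ± 0.23 (SE, 3 against 2 animals; unadjusted p = 0.0479, adjusted p = 0.579, limma). This is also the comparison within the first scan day. The other Dio1 probes then gave -0.74 and -0.59. The dim Thrb probe passed the filter in that fit only through the corn oil arrays left, where it was bright, so that the filter itself selects for a lower value in TCEP livers, and no test of it is given there. Among all genes in that fit, 8.55% reached an unadjusted p under 0.05, and 13.2% were lower in TCEP livers with no overlap.

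Without TCEP replicate 2, Thrsp was lower in TCEP livers with no overlap, at -1.27 ± 0.45 (SE, 2 against 3 animals; unadjusted p = 0.0338, adjusted p = 0.763, limma). In that fit 6.27% of all genes reached an unadjusted p under 0.05, and 12.1% were lower with no overlap. Without corn oil replicate 3 the Thrsp difference was -0.45, and Klf9 changed sign to 0.02. In the same fit Gpd2 was higher in TCEP livers with no overlap at 0.20 ± 0.10 (SE), and its other probes gave 0.32 and 0.33. Among all genes 17.2% were higher with no overlap there and 11.6% reached an unadjusted p under 0.05. Without TCEP replicate 3 the Dio1 difference was -0.10. Without corn oil replicate 1 Klf9 was at -0.56, and without corn oil replicate 2 Thra was at 0.03. Counted over probes, 0 of the 10 tested reached an unadjusted p under 0.05 with all arrays, against 8.94% of all probes. There was 1 without TCEP replicate 2 (6.25% of all probes). Without corn oil replicate 2 there were 3, all of Dio1 (8.58% of all probes), and without corn oil replicate 3 there were 2, both of Gpd2 (11.5%). The Thrb probe, which the filter let into the fit without corn oil replicate 2 through the corn oil arrays alone, is not counted. No member passed an adjusted p of 0.05 in any of these 6 fits.

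**Figure D4:**
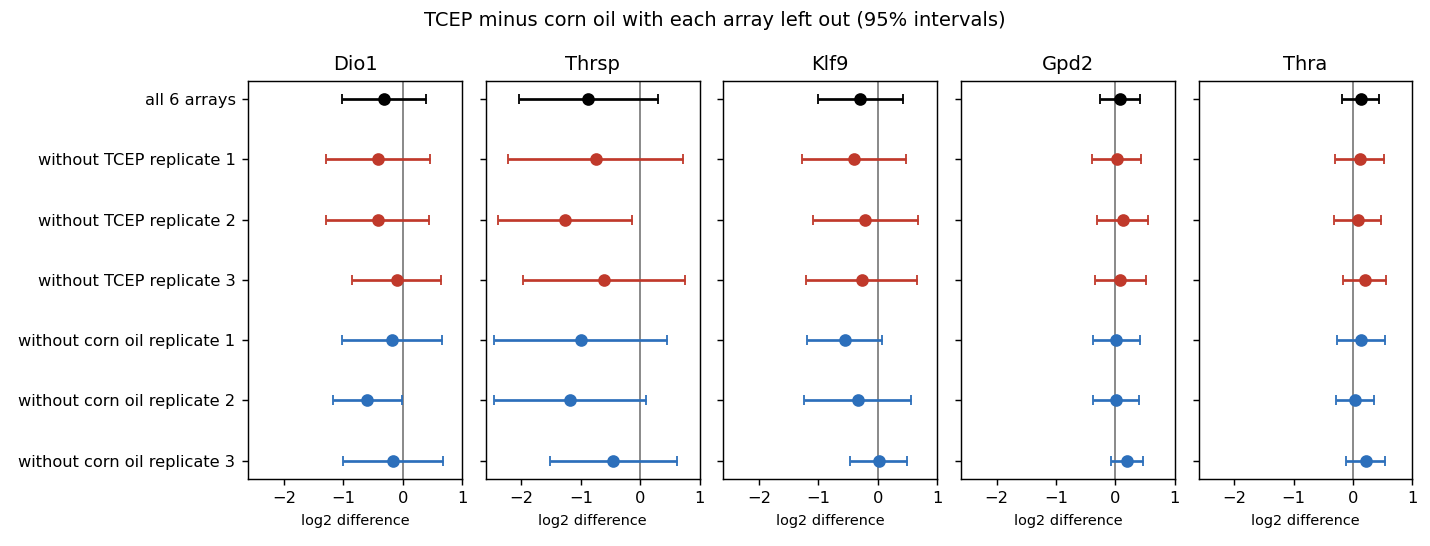
Points are the log2 differences, TCEP minus corn oil, of the brightest probe of each of the 5 tested members, and bars the 95% intervals from limma, with all 6 arrays (top) and with each array left out in turn. Of the intervals drawn, 2 leave 0 out, Thrsp without TCEP replicate 2 and Dio1 without corn oil replicate 2, and Klf9 reaches 0.02 without corn oil replicate 3.

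Genes whose values ran most like those of Dio1, Thrsp and Klf9 over the 6 arrays were sought among 10438 genes with a symbol that were well above background on all arrays. For Dio1 they were Mapk8ip1 (Pearson r = 0.990), Baz2a (0.982) and Enpp3 (0.981). For Thrsp they were Clec9a (0.995), Pcp4l1 (0.992) and Yod1 (0.982), and for Klf9 Dnajb5 (0.991), Etnk1 (0.989) and Dda1 (0.988). With 6 arrays and this many candidates, high values of r are found for many genes, and the arrays are shared, so these are descriptions only.

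Genes around the members were followed as lists, each described by its counts and median beside those of all genes: 5.01% of genes were higher and 4.19% lower at an unadjusted p under 0.05, and no list gene passed an adjusted p of 0.05. Among plasma carriers, 0 of 3 reached an unadjusted p under 0.05 and the median was -0.02. With normexp, the mean over probes or eBayes with trend, 1 was lower at that threshold. The brightest were Ttr, transthyretin, at -0.02 ± 0.09, and Alb, albumin, at -0.19 ± 0.09 (SE). Alb was lower in TCEP livers with no overlap, and its other probes gave -0.23 and -0.30 at unadjusted p of 0.0376 and 0.0190 (adjusted p = 0.543 and 0.512, limma), also with no overlap.

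Of 13 genes of hormone transport across membranes, 11 were measured, 2 were lower at an unadjusted p under 0.05, 0 with median centring, and 9 had lower means in TCEP livers, 6 with median centring. The median was -0.07. Slc16a10, a carrier of aromatic amino acids and iodothyronines, had values of -0.47, -0.79 and -0.49 in TCEP livers, against -0.35, -0.13 and -0.03 in corn oil livers. All TCEP animals were below all corn oil animals, and the log2 difference was -0.41 ± 0.14 (SE; unadjusted p = 0.0227, adjusted p = 0.511, limma). Leaving out 1 array left 0 to 3 genes of this list lower at an unadjusted p under 0.05.

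Of 13 genes of deiodination and conjugation, 11 were measured and 2 were higher at an unadjusted p under 0.05, with a median of 0.05. Without TCEP replicate 1, TCEP replicate 3 or corn oil replicate 2 only 1 was higher, and the median lay between -0.005 (without corn oil replicate 2) and 0.16 (without TCEP replicate 3). Ugt2b1, a glucuronosyltransferase that also belongs to the enzyme induction panel, whose genes were already known to differ in these animals, had values of 7.34, 6.92 and 6.97 in TCEP livers, against 5.65, 4.71 and 5.66 in corn oil livers. The animals of each treatment were well apart, and the level in TCEP livers was 3.32 times that in corn oil livers (log2 difference 1.73 ± 0.29, SE; adjusted p = 0.302, limma). Sult1c2, a sulfotransferase, gave 0.36 ± 0.12 (adjusted p = 0.520) and reached an unadjusted p under 0.05 in 12 of 17 alternatives. Its other probes gave 0.47 ± 0.34 and 0.59 ± 0.36 (SE) and did not reach it. Ugt1a1 and Ugt1a6, which glucuronidate thyroxine in rat, had differences of 0.05 ± 0.18 and 0.35 ± 0.17 (SE), and neither reached an unadjusted p under 0.05. These 2 were chosen after their values were seen.

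Among receptor partners and coregulators 12 of 18 genes were measured, and among the Mediator subunits other than Med1, 24 of 30. In neither list did a gene reach an unadjusted p under 0.05, and the medians were -0.005 and 0.07. Among the partners 1 was higher at that threshold with quantile normalization or median centring and without corn oil replicate 1. Without TCEP replicate 2 or corn oil replicate 3, 1 partner was lower. Among the Mediator subunits 1 was higher with median centring and 2 with normexp. The brightest of the partners were the retinoid X receptor gene Rxrg at 0.23 ± 0.22 and the corepressor subunit Tbl1x at 0.08 ± 0.09. The brightest Mediator subunits were Med24 at 0.12 ± 0.10 and Med10 at -0.01 ± 0.11 (SE).

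Of 19 other hormone-induced liver genes, 18 were measured, with 1 higher and 1 lower at an unadjusted p under 0.05 and a median of -0.02. Cyp7a1, which starts the conversion of cholesterol to bile acids, had values of -2.80, -0.92 and -2.22 in TCEP livers, against 0.20, -0.49 and -0.43 in corn oil livers. The groups did not overlap, although TCEP replicate 2 came near the corn oil animals, and the ratio was 0.300 (log2 difference -1.74 ± 0.49, SE; adjusted p = 0.481, limma). Me1, the cytosolic malic enzyme that supplies NADPH for lipid synthesis, was in the opposite direction at 0.59 ± 0.24 (adjusted p = 0.537). On this brightest probe the lowest TCEP value, 4.06, was just above the highest corn oil value, 4.03. The other probes of Me1 gave 1.20 and 1.19 at unadjusted p of 0.0074 and 0.0068 (adjusted p = 0.487 and 0.484, limma), also with no overlap. The gene value of Me1 reached an unadjusted p under 0.05 in 9 of 17 alternatives. The list held 0 higher genes at that threshold with quantile normalization, no filter on dim probes or the replicate block, and without TCEP replicate 2 or corn oil replicate 3. Its median lay between -0.09 and 0.10 with 1 array left out.

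Gpd2 acts in the glycerol phosphate shuttle, and of 9 genes of the cytosolic NADH shuttles 6 were measured. In TCEP livers 5 had higher means, 3 with quantile normalization, and the median was 0.08. Slc25a11, the malate carrier of the inner mitochondrial membrane, was higher at an unadjusted p under 0.05 with values of 3.80, 3.92 and 3.97 in TCEP livers, against 3.62, 3.54 and 3.40 in corn oil livers. The groups did not overlap, and the log2 difference was 0.38 ± 0.10 (SE; adjusted p = 0.479, limma), with 0.36 from a further probe. Gpd1, the cytosolic partner of Gpd2, was at 0.18 ± 0.15 and the aminotransferase Got2 at 0.03 ± 0.14 (SE).

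The 10 measured Kruppel-like factors other than Klf9, of 15 listed, all had lower means in TCEP livers (9 of 10 with median centring or normexp). With no filter on dim probes 11 of 13 had lower means. With 1 array left out 8 to 10 did, of 11 measured without TCEP replicate 2 and of 10 otherwise. The median of the list with all arrays was -0.29, with 1 lower at an unadjusted p under 0.05. That was Klf4, at -0.36 ± 0.13 (SE; adjusted p = 0.521, limma), while the brightest, Klf15 and Klf6, were at -0.29 ± 0.33 and -0.36 ± 0.21. Klf4 reached an unadjusted p under 0.05 in 10 of 17 alternatives. The list held 0 lower genes at that threshold with median centring or the replicate block and without TCEP replicate 2 (where 1 was higher) or corn oil replicate 2. It held 3 lower genes when corn oil replicate 1 was left out. Without corn oil replicate 3 the median of this list was -0.16. The glucocorticoid receptor and 7 of its targets, listed because Klf9 responds to glucocorticoids, had a median of -0.50 and 0 genes at an unadjusted p under 0.05. Without TCEP replicate 2 or without corn oil replicate 2, 1 of these was lower at that threshold. Tat, the tyrosine aminotransferase, was at -0.81 ± 0.38 and Tsc22d3 at -0.33 ± 0.61 (SE), and without corn oil replicate 3 the median of this list was 0.02. The part of these genes in the Klf9 values was not tested.

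The enzyme induction panel was chosen because its genes were already known to differ in these animals, and its 9 genes, all higher in TCEP livers with no overlap, are given only as the setting for the members. Their median log2 difference was 1.28, with Abcc3 at 2.25 ± 0.33, Cyp3a9 at 1.13 ± 0.15 and Cyp2c6v1 at 0.72 ± 0.11 (SE).

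**Figure D5:**
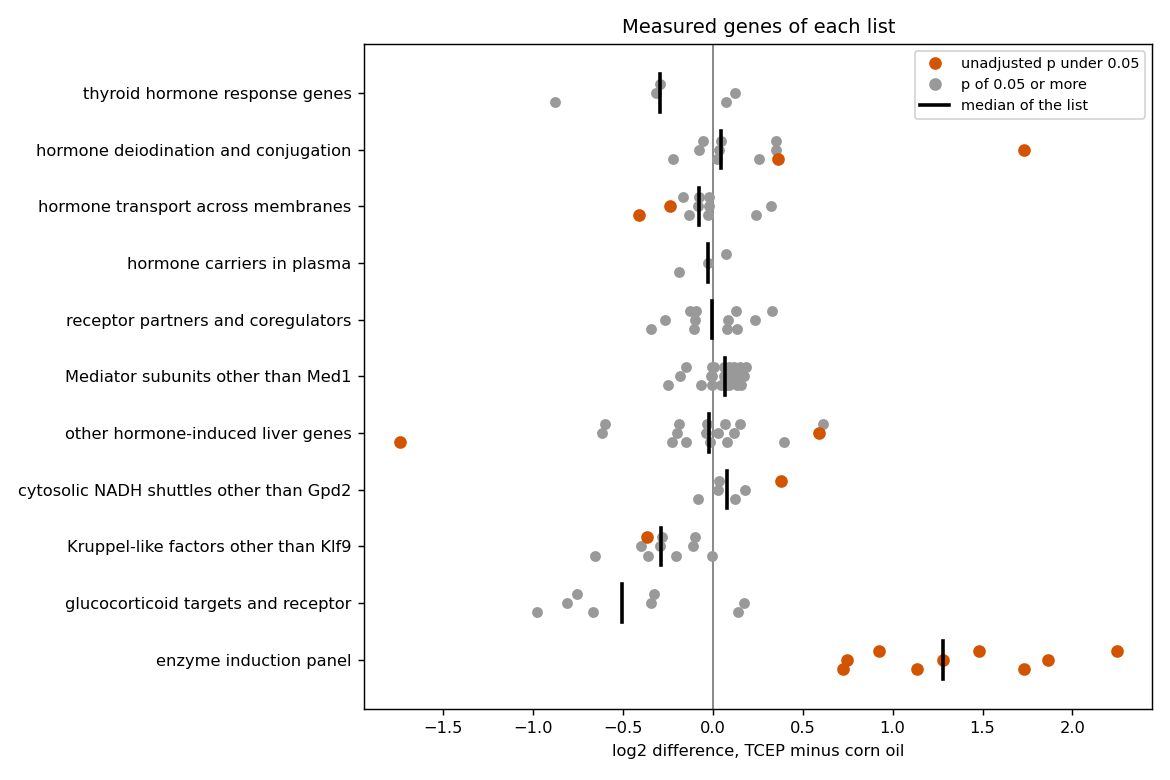
Each point is 1 measured gene, by its log2 difference, TCEP minus corn oil, with orange for an unadjusted p under 0.05 and a black bar for the median of the list. The thyroid hormone response genes (top) have no orange point and a median of -0.30, and the enzyme induction panel (bottom) has a median of 1.28.

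Markers of other cells were also followed. Macrophage markers, all 7 measured, had a median of -0.01, and their summed signal was 84.1 to 99.8 in TCEP livers, against 58.4 to 141.7 in corn oil livers, where replicate 3 was the highest. Their part in the member values was not tested. Endothelial and stellate medians were -0.07 and -0.09 over 3 and 6 genes, with 1 stellate gene lower at an unadjusted p under 0.05, and the cholangiocyte median was 0.25 over 4 genes, with 1 higher. The lymphocyte median was 0.53 and the erythroid median -0.04, over 4 and 3 genes. Of 5 thyroid gland markers 4 were measured, with a summed signal of 0.285 to 0.501 in TCEP livers and 0.256 to 0.517 in corn oil livers, and no adipocyte marker was well above background.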

How the data were processed

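Per the labels' protocols, total liver RNA was turned into Cy3-labelled cRNA for 1-colour arrays. The authors extracted the spot intensities, on a design annotated to build rn4, using Agilent Feature Extraction, version 10.7.1.1 per the file headers and 10.7 per the submitters' processing notes. The deposited scanner files hold a background-subtracted processed intensity, median spot and background intensities and 0 or 1 flags, the last carried as scores. The deposited value table holds a ratio, the processed signal over the array's 75th percentile. This was read from its values, which tracked the scanner signals to within a median of 0.0024 log2 units. Its column medians were 0.0955, 0.0971 and 0.0953 in TCEP and 0.1, 0.103 and 0.0961 in corn oil arrays. The labels give no further step.

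From the deposited intensities, log2 of the processed signal minus the 75th percentile over non-control probes was computed. The 1319 control spots were dropped, the 64 outlier-flagged spots set to missing and the 5 saturated ones kept. A probe was kept (37043 were) if every array of either group flagged it as well above background. Probes were named through RefSeq transcript accessions (27460 with a symbol, the rest under the file's name), and the brightest kept probe stood for a gene, with every member probe also fitted. TCEP was tested against corn oil with limma 3.58.1 in R 4.3.3 (lmFit, eBayes, two-sided, Benjamini-Hochberg over 27642 genes or 37043 probes). The median SE was 0.145, and only 3 arrays a group limit the precision. An exact permutation test of 3 against 3 cannot go below p = 0.1. The fit was tested on simulated data.

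Named genes were all members, list genes at an unadjusted p under 0.05 (at most 4 a list, or the 2 brightest where fewer than 2), and the 3 genes most like Dio1, Thrsp and Klf9. Members and lists were chosen with earlier results of these data known. Alternatives were quantile and median scaling, normexp with offset 50 on the median spot intensity, the deposited table, other filters and probe rules, eBayes with trend, slide and replicate blocks, and leaving out each array. The values of 1 gene of the lists are not reported here.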

Additional observations from a re-analysis of the deposited data

How the results depend on the processing

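No gene passed an adjusted p of 0.05 in any of 17 alternatives, the smallest adjusted p lying between 0.06 and 0.743, against 2543 genes at an unadjusted p under 0.05 (1644 to 3224 with 1 array left out). The share of these that were higher in TCEP livers was 54.4%, but 76.2% with median centring, 62.9% with normexp and 37.9% with no filter on dim probes. Member probes at an unadjusted p under 0.05 numbered 0 to 4 with 1 array left out: 1 when TCEP replicate 2 was dropped, 4 when corn oil replicate 2 was and 2 when corn oil replicate 3 was. Of the 4, 1 was the Thrb probe, let into that fit by the corn oil arrays alone. Over the same fits the member median lay between -0.40 and 0.016. Klf9 reversed without corn oil replicate 3 (range -0.56 to 0.016), while Dio1, Thrsp, Gpd2 and Thra kept their direction in all 17. Several of the 17 could not show otherwise: the filters, eBayes with trend and the replicate block left a member's difference unchanged. With 1 array left out, the values nearest to no difference were -0.10 for Dio1, -0.45 for Thrsp, 0.004 for Gpd2 and 0.03 for Thra. Near-zero genes also changed sign: Got2 (-0.040 with quantile normalization, -0.0945 to 0.093 with 1 array left out), Ttr (0.0018 with quantile normalization, 0.036 with median centring, 0.057 over the mean of probes, -0.064 to 0.012 with 1 array left out), Med10 (0.049 with median centring, 0.0065 with normexp, 0.025 over the mean of probes, -0.096 to 0.067) and Tbl1x (-0.0016 over the mean of probes). Leaving out 1 array put Tsc22d3 between -0.82 and 0.16. The cause was not tested. With each gene's group mean subtracted, same-numbered TCEP and corn oil arrays correlated at -0.048, -0.165 and -0.015. Pairs with unlike numbers lay between -0.066 and 0.116. These values showed no pairing by replicate number, but with 3 arrays a group they cannot settle it. With the replicate block, 1901 genes reached an unadjusted p under 0.05, 0 passed the adjusted threshold and the smallest adjusted p was 0.702. The values of Thrb and the list counts with 1 array left out were added after seeing the data. Dim signal limits Thrb, and 3 arrays a group limit all members.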

Other observations

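Corn oil replicate 3 held the highest of the 6 values for 4 of the 5 measured members (Dio1, Thrsp, Klf9 and Gpd2), as it did for 18.7% of all genes tested. It also held the highest value for 5 of the 8 glucocorticoid genes. Of the 10 other Kruppel-like factors it held the highest for 3, as did corn oil replicate 2, against 2 for corn oil replicate 1. This count was made after the values were seen. In that animal Fkbp5, a glucocorticoid-induced co-chaperone outside the rule for named genes, had a value of 4.45, against 1.05 and 1.68 in the other corn oil livers, and TCEP livers had 1.25, 2.17 and 1.48. Tat had values of 2.19, 2.59 and 1.46 in TCEP livers, against 2.72, 2.43 and 3.51 in corn oil livers. Corn oil replicate 3 was the highest in both genes. Dusp1, Nr3c1 and Sgk1, of the same list, did not follow this order. Dusp1 had -0.53, -1.16 and -1.35 in TCEP livers, against 0.85, -0.69 and -1.19 in corn oil livers, where replicate 3 was the lowest. Nr3c1, the receptor gene, had 2.22, 2.00 and 1.98 in TCEP livers, against 2.02, 2.06 and 1.71 in corn oil livers, and replicate 3 was the lowest of all 6. These genes were picked after their values were seen.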
